A study of Mus musculus with 270 samples.

Results

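The comparison described here is testis at 8 months (8 M) against testis at 3 months (3 M), in 8 and 7 bulk RNA-seq libraries of 1 mouse each, which are 15 of the 270 libraries of the series used here. Its members are the 19613 of 51810 listed genes with at least 10 normalized counts in 5 or more of the 45 testis libraries, and each is described by its log2 difference, 8 M minus 3 M. The study followed ageing in organs of male C57BL/6J mice from 3 to 26 M, over 6 ages, to ask when transcription shifts in each organ. All groups were wild-type males bought as 1 cohort and kept in groups under standard husbandry, without a treatment or transgene, so that age was the difference by design. Whole testis was powdered before RNA was taken, so germ cells, tubule cells and interstitial cells were measured together, and in such bulk samples fewer cells of a type and less RNA per cell cannot be told apart.

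The testis makes sperm in seminiferous tubules, where spermatogonia divide, enter meiosis as spermatocytes and mature through round to elongating spermatids. Sertoli cells inside the tubule feed and anchor these germ cells and seal the blood-testis barrier, whereas Leydig cells between the tubules make testosterone from cholesterol under the control of luteinizing hormone. Both ages compared here lie in the fertile adult life of the mouse, after the first waves of sperm formation and before late-life decline.

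The libraries held testis RNA by their markers. Prm1, the protamine that packs sperm DNA, had a median of 17017 normalized counts at 3 M and 18308 at 8 M, and Sycp1, a protein of the meiotic synaptonemal complex, had 12440.2 and 11438. Sertoli, Leydig and peritubular genes were all measured, among them Sox9 (medians of 268 and 249), Cyp17a1 (1539 and 1600.4) and Acta2 (268 and 277). Some genes with a known place in the testis, including Tnp1, Sycp3, Tex12 and Insl3, were listed at 0 in all 15 libraries, as were the 13 genes encoded by the mitochondrial genome, so nothing is said of them here. Markers of epididymis, skeletal muscle, liver and kidney each took at most 0.00707% of reads in any library used for the comparison. Adipocyte markers took up to 0.00821% and cardiomyocyte markers up to 0.0335%.

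Depth ranged from 10365900 to 15811030 reads at 3 M and from 10110187 to 19848304 at 8 M. The mean depth differed by 990438 reads, which was not larger than the spread (p = 0.485, two-sided exact permutation test over 6435 regroupings). One library stood apart, replicate 4 of 8 M. It had the lowest depth, a principal component 1 (PC1) score of 100.4 where the other 14 lay between -33.4 and 29.1, and 6.18% of its reads on its 10 most abundant genes where the others had 3.92% to 5.06%. Its deviation from the gene medians over the 15 libraries had an SD over genes of 0.781 on the log2 scale, against 0.287 to 0.494 elsewhere. Replicate 4 of 3 M came second with 0.494. Gene and list results that rest on replicate 4 of 8 M are therefore given with and without it. Tests on whole libraries were run only with it included.

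**Figure D1:**
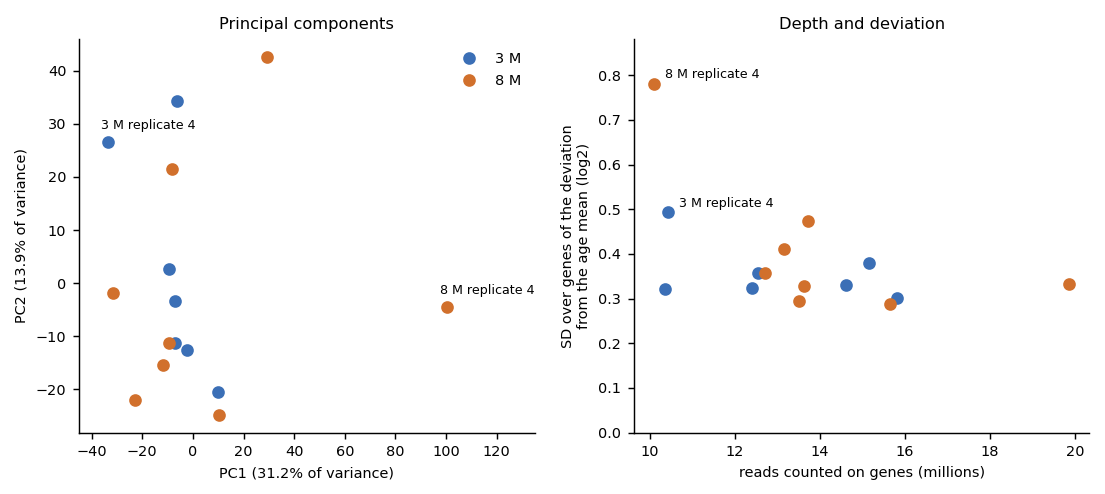
Left, scores of the 15 libraries on PC1 (31.2% of variance) and PC2 (13.9%) of the log2 values of all genes tested. Right, sequencing depth (reads counted on genes) against the SD over genes of each library's log2 deviation from the gene medians over the 15 libraries. The axis label names the age mean, but the pooled median was used. Blue points are 3 M and orange points 8 M, and replicate 4 of 8 M lies alone at a PC1 score of 100.4 and an SD of 0.781.

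Over whole transcriptomes, with all 15 libraries included, no measure separated the ages beyond the spread between libraries. PC1 held 31.2% of the variance and PC2 13.9%, and their group means differed with p = 0.472 and p = 0.703 (two-sided exact permutation tests). The mean distance between libraries of different age was 0.555 per gene on the log2 scale, and that between libraries of the same age was 0.567 (difference of -0.0120, one-sided exact permutation p = 0.844). Genes with at least 1 read numbered 24864.6 ± 450.6 at 3 M (SD, n = 7) and 25135.6 ± 491.7 at 8 M (SD, n = 8; exact permutation p = 0.285), and the share of reads on the 10 most abundant genes differed with p = 0.917. These 5 tests and that of depth formed a family of 6, in which each adjusted p was 0.917. All 6 included replicate 4 of 8 M and were not repeated without it. Its median distance to the other libraries was 0.859, where theirs ran from 0.452 to 0.610. The SD of PC1 scores was 42.2 at 8 M and 13.0 at 3 M. How far that library widened the spread in these tests was not tested.

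PC2 followed something other than age. The mice were split into 2 sets by the sign of their heart library's score on the PC1 of the heart libraries. Such a cut gives 2 sets whether or not the scores lie apart. The 8 testis libraries of 1 set had PC2 scores from -4.49 to 42.5, while the 7 of the other had -24.8 to -11.2. Each set held both ages, 4 and 3 libraries at 3 M and 4 and 4 at 8 M. Replicate numbers, given in accession order, followed the sets, with replicates 1 to 4 of both ages in the first. What the sets stand for is not given by the labels and was not tested.

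No gene passed the test. At an adjusted p of at most 0.05 (limma, Benjamini-Hochberg over all 19613 genes), 0 genes differed between 8 and 3 M, which is 0.0% of those tested, and the smallest adjusted p was 0.816. edgeR and DESeq2 on the reads behind the normalized counts also called 0 genes. At an unadjusted p of at most 0.05, 736 genes stood out (3.75%), 395 of them higher (2.01%) and 341 lower at 8 M (1.74%), where a threshold of 0.05 passes 5% of genes by definition when p-values are uniform. edgeR gave 818 such genes and DESeq2 874, of which 571 (65.3%) were higher at 8 M against 53.7% in limma.

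For most genes the interval held the difference within 2-fold, though less often at low levels of expression. The 95% interval of the difference lay within 2-fold in either direction for 18471 genes (94.2%) and within 1.5-fold for 14171 (72.3%). Precision followed the level: when genes were split by level into 4 bins of equal size, the median SE was 0.276 in the lowest bin and 0.107 in the highest. The share of intervals within 2-fold was 78.7% in the lowest bin, 98.7% in the next and 99.6% in the highest.

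Only 12 genes differed by more than 1 on the log2 scale, and 6 of these reached an unadjusted p of 0.05 or less. All 6 were low. Apart from Sox14, described below, they included Astx5 (difference of 1.23, SE 0.56), Gabrb2, a subunit of the receptor for the neurotransmitter GABA (1.15, SE 0.52), and Slc5a12, a lactate transporter (-1.05, SE 0.48), which were chosen after their values were seen. Astx5 and Gabrb2 were at 0 in at least 1 library of 3 M, and Slc5a12 in at least 1 of 8 M. The median difference over all genes was -0.01, with 9124 genes (46.5%) higher at 8 M and 10489 (53.5%) lower.

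**Figure D2:**
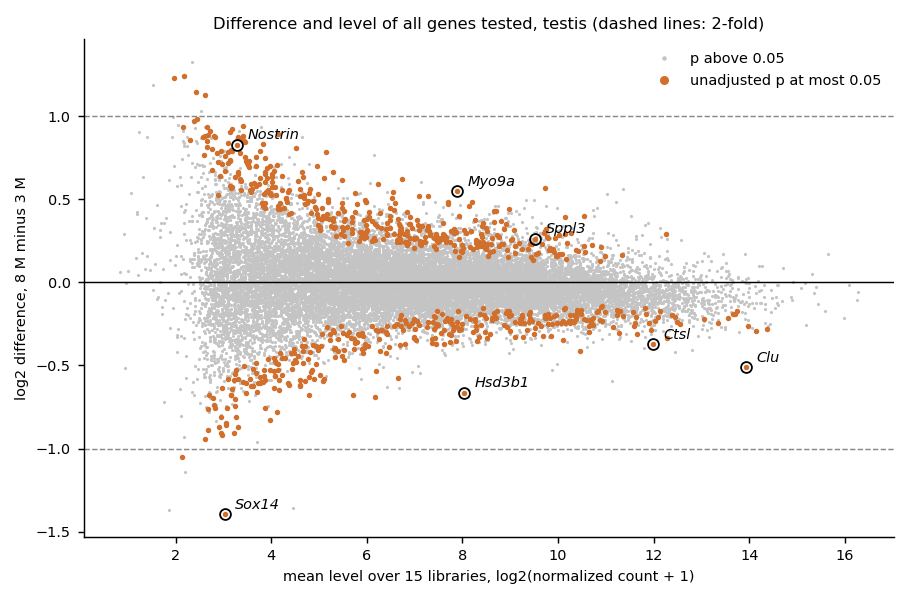
Log2 difference, 8 M minus 3 M, of the 19613 genes tested (vertical axis) against the mean level over the 15 libraries as log2(normalized count + 1) (horizontal axis). Orange points are the 736 genes with an unadjusted p of at most 0.05, none of which passed after adjustment; dashed lines mark 2-fold and circles mark 7 genes described in the text, among them Sox14 at -1.39.

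Leaving out replicate 4 of 8 M reduced the genes at an unadjusted p of at most 0.05 to 465 (2.37%), of which 319 were among the 736. The median SD over genes within 8 M was 0.330 with this library and 0.255 without it, close to 0.248 at 3 M. Without it 9621 genes (49.1%) were higher and 9992 (50.9%) lower at 8 M, and the adjusted count stayed at 0.

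The 24 genes with the smallest p, 12 in each direction, are described next although they passed no adjusted test, and predicted gene models were left out of this choice. Sox14, a transcription factor of the SOX family known from neuron specification, had the smallest p of all genes. It lies on chromosome 9 (GRCm38, 99874106 to 99876170, minus strand). At 3 M its normalized counts ran from 7.17 to 25.3 with a median of 12.9, and at 8 M from 1.28 to 12.1 with a median of 3.58. All 8 libraries of 8 M lay below the median of 3 M and 6 lay below the lowest value of 3 M. The difference was -1.39 (SE 0.31, adjusted p = 0.816), and without replicate 4 it was -1.22. When limma gave noisier libraries less weight, a choice made after seeing the data, Sox14 alone passed with an adjusted p of 0.0496, while over all alternatives its adjusted p ranged from 0.0496 to 1.00. At these levels a library held between 1 and 25 reads of the gene.

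Hsd3b1 encodes 3-beta-hydroxysteroid dehydrogenase, which turns pregnenolone into progesterone on the way to testosterone. The gene lies on chromosome 3 (GRCm38, 98852194 to 98859794, minus strand). It had 271 to 402 normalized counts at 3 M with a median of 330.1, and 114 to 296 at 8 M with a median of 229. The groups overlapped in 1 library of 8 M. The difference was -0.66 (SE 0.16, adjusted p = 0.986), and -0.54 without replicate 4 of 8 M, whose value was the lowest. In the 2 sets of mice it was -1.06 and -0.23. The gene has close copies in the genome, so the counting of reads between them is uncertain.

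Calml3 and Orc6 had no overlap between the ages. Calml3, a calmodulin-like calcium sensor, had 38.6 to 48.7 normalized counts at 3 M (median 40.3) and 17.9 to 32.9 at 8 M (median 28.5), a difference of -0.59 (SE 0.17). Orc6, a subunit of the complex that marks origins of DNA replication, had 311 to 364 (median 331) and 223 to 308 (median 301), a difference of -0.22 (SE 0.07). Of all genes tested, 3 (0.0153%) had every library of 8 M below every library of 3 M and 0 had every one above. The third was Adipor1, a receptor for adiponectin named here after its values were seen, with 894 to 957 and 551 to 879 normalized counts. Its difference was -0.22 (SE 0.08), and -0.14 without replicate 4 of 8 M.

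Ctsl, Capn13 and Trim68 were also among the 12 lower genes. Ctsl, the lysosomal protease cathepsin L, which Sertoli cells make in quantity, had 4192 to 5170.3 normalized counts at 3 M (median 4629) and 1821 to 4539.6 at 8 M (median 3940.4). Its difference was -0.37 (SE 0.11), and -0.23 without replicate 4. Capn13, a calcium-dependent calpain protease, had 23.7 to 28.6 at 3 M (median 25.3) and 14.5 to 24.3 at 8 M (median 17.2), with 7 of 8 libraries of 8 M below all of 3 M (difference -0.52, SE 0.15). Trim68, a ubiquitin ligase, had medians of 122 and 91.6 (difference -0.58, SE 0.16). Replicate 4 of 8 M held the lowest value of both Ctsl and Trim68.

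The other 5 of the 12 lower genes were Olfr335-ps, Eif2b3, Ap1s1, Zfp760 and Pacsin1, with differences between -0.27 and -0.83. Eif2b3, a subunit of the translation initiation factor eIF2B, had 206 to 283 normalized counts at 3 M (median 253) and 189.6 to 233 at 8 M (median 205). Ap1s1 and Pacsin1 act in the traffic of membrane vesicles, and their medians were 128 and 102 and 219.9 and 186. Olfr335-ps, annotated as a polymorphic pseudogene of an olfactory receptor, had medians of 21.1 and 11.9, and its reads may be shared with related receptors. In all of these the ages overlapped.

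The 12 genes leading in the other direction had differences of 0.23 to 0.83. Sppl3, a protease of the Golgi membrane that trims glycosyltransferases, had 525 to 733 normalized counts at 3 M (median 680.2) and 695 to 946 at 8 M (median 810.4). In 6 of 8 libraries of 8 M the value was above all of 3 M. The difference was 0.26 (SE 0.07, adjusted p = 0.986). Rnf144b, a ubiquitin ligase, had 417 to 509 (median 477) and 481 to 618 (median 567), with 7 of 8 libraries of 8 M above all of 3 M. Pde7a, a phosphodiesterase that breaks down cyclic AMP, had 319 to 434 (median 351) and 362 to 456 (median 422). Both differed by about as much as Sppl3, 0.26 (SE 0.08) and 0.23 (SE 0.07).

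Myo9a, Shroom2, Spata13 and Tbc1d25 were also among the 12 higher genes. Myo9a, an unconventional myosin, had 139 to 233 normalized counts at 3 M (median 196) and 179 to 524 at 8 M (median 255). Its difference was 0.55 (SE 0.17), and 0.42 without replicate 4 of 8 M. Shroom2, an actin-binding protein, had 27.4 to 54.6 (median 34.8) and 44.4 to 61.5 (median 48.1), a difference of 0.45 (SE 0.15). Spata13, an exchange factor for small GTPases, had medians of 86.6 and 110.5, and Tbc1d25, which acts on Rab GTPases, had 104 and 133. Within the range of 3 M lay 3 of the 8 libraries of 8 M for Myo9a, 5 for Shroom2, 4 for Spata13 and 6 for Tbc1d25.

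Nostrin, a regulator of endothelial nitric oxide synthase, had the widest difference in this direction, 0.83 (SE 0.26), at low levels of 2.49 to 10.5 normalized counts at 3 M (median 7.07) and 7.83 to 26.9 at 8 M (median 10.4). Reps2, an adaptor in receptor endocytosis, had medians of 75.5 and 99.4, and Bcas3, linked to cell migration, had 354 and 447. Abhd17c, which removes palmitate from proteins, had 198 and 229.8. Tmem181a, with 96.3 and 126, has near copies in the genome and its counting is uncertain.

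Replicate 4 of 8 M held the highest value of 8 M in 8 of the 12 genes higher at that age and the lowest in 8 of the 12 lower ones. Replicate 4 of 3 M held the lowest 3 M value of Sppl3, Reps2, Nostrin, Myo9a, Bcas3, Abhd17c, Rnf144b and Shroom2. It did not in Pde7a, Spata13, Tmem181a or Tbc1d25. Among the lower genes it held the highest 3 M value of Capn13, Ap1s1 and Orc6 only. Differences without that library are not given here. Without replicate 4 of 8 M all 24 genes kept an unadjusted limma p of at most 0.05. In all 24 the sign was the same in both sets of mice. The choice of genes by p from the same libraries largely fixes both. Adjusted p-values of these genes other than Sox14 were 0.986, and under the alternatives tried they ranged down to 0.311 for Hsd3b1.

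**Figure D3:**
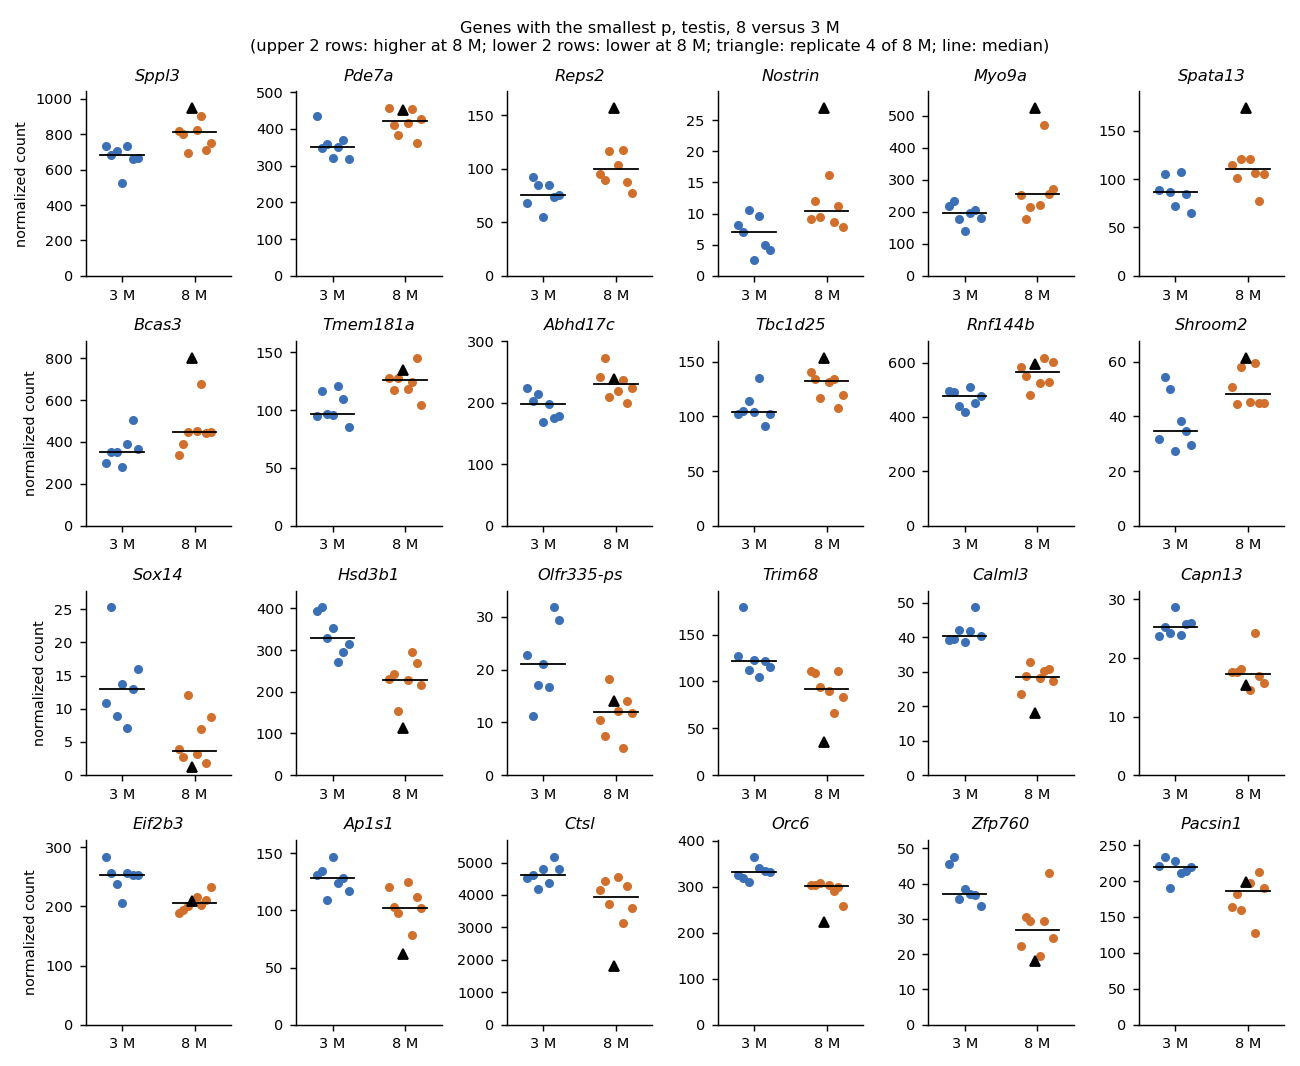
Normalized counts (vertical axes, each from 0) of the 24 leading genes in the 7 libraries of 3 M (blue) and the 8 of 8 M (orange); lines are medians, and the black triangle is replicate 4 of 8 M. The ages do not overlap in Calml3 and Orc6, and the triangle is the extreme 8 M value in 8 of the 12 genes of each direction.

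Mice of 5 and 14 M share no library with the comparison. Between 5 and 14 M, 11 of the 24 genes had a difference of the same sign as between 3 and 8 M, and 0 of the 11 had an unadjusted limma p of at most 0.05. At 5, 14, 20 and 26 M Sppl3 had medians of 733, 736, 743 and 731 normalized counts, all between those of 3 and 8 M. Sox14 had medians of 9.53, 8.08, 4.84 and 8.13 at these ages, and Hsd3b1 289, 268, 314 and 229.6. Capn13 had 16.7, 16.8, 21.3 and 17.2, all below the lowest library of 3 M. The 5 M median was nearer the 8 M median in 13 of the 24 genes, the 14 M median in 18, the 20 M median in 15 and the 26 M median in 16.

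The 736 genes at an unadjusted p of at most 0.05 were followed in the same way. Between 5 and 14 M, 392 of them (53.3%) had the same sign as between 3 and 8 M, against 10811 of all 19613 genes (55.1%). In that comparison 563 genes (2.87%) reached an unadjusted p of 0.05 or less, and 24 were among the 736, 17 of them with the same sign.

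Germ cell genes had median differences near 0. Of spermatogonial markers 9 of 15 tested were higher and 6 lower at 8 M (median difference 0.02), and 0 reached an unadjusted p of 0.05 or less. Dmrt1, which holds back meiosis in spermatogonia, had medians of 628 normalized counts at 3 M and 653 at 8 M, with a difference of 0.14 (SE 0.16) that was 0.01 without replicate 4. Lin28a, an RNA-binding protein of undifferentiated spermatogonia, had medians of 54.2 and 65.0. Kit and Stra8, which mark the step to differentiation and meiosis, had differences of 0.06 (SE 0.11) and -0.10 (SE 0.15). In Lin28a, Dmrt1, Kit and Stra8 the ranges of the ages overlapped.

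Meiotic and later stages followed. Of 20 spermatocyte genes 7 were higher and 13 lower (median -0.05), beside 53.5% of all genes lower. Sycp1 ran from 4984 to 14567 normalized counts at 3 M and from 8908 to 23105 at 8 M. Round spermatid genes had a median of -0.02 over 15 genes. Of the 15, 1 reached an unadjusted p of 0.05 or less, beside 3.75% of all genes. That gene was Zpbp, a protein of the sperm head that binds the egg coat. Zpbp had 1230.0 to 1593 normalized counts at 3 M (median 1349) and 1327 to 2294 at 8 M (median 1504), a difference of 0.22 (SE 0.09) that was 0.15 without replicate 4. Elongating spermatid genes took 2.26% to 3.21% of reads at 3 M and 2.42% to 2.87% at 8 M, with a median difference of -0.01 over 14 genes. Prm1 differed by 0.10 (SE 0.23), and its interval ran from -0.36 to 0.56.

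Genes of the sperm axoneme, the motor of the tail, had a median of -0.05 over 20 genes. Rsph1, a protein of the radial spokes, had 16156 to 23526 normalized counts at 3 M (median 20978) and 8351 to 20436 at 8 M (median 17586), a difference of -0.29 (SE 0.14, adjusted p = 0.986). The piRNA pathway, which silences transposons in germ cells, had a median of -0.04 over 21 genes, 7 higher and 14 lower. Without replicate 4 of 8 M the median turned to 0.01, with 13 higher and 8 lower. Of all genes, 53.5% were lower with that library and 50.9% without it. Piwil1 reached 41167 normalized counts in replicate 4 of 8 M, where the next highest library of 8 M had 15241.

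Genes of the mitotic cycle were lower at 8 M in all 16 cases, beside 53.5% of all genes, with a median of -0.18 beside -0.01. Of the 16, 1 reached an unadjusted p of 0.05 or less, beside 3.75% of all genes. That gene was Cdk1, the kinase that starts mitosis, which had 1033 to 1637 normalized counts at 3 M (median 1169) and 478 to 1249 at 8 M (median 1066). Its difference was -0.35 (SE 0.14, 95% interval -0.63 to -0.07), and -0.20 without replicate 4. The list took 0.113% to 0.147% of reads at 3 M and 0.0852% to 0.146% at 8 M, with the lowest share in replicate 4. Without this library the median was -0.06, 14 genes were lower and 2 higher, and 0 reached an unadjusted p of 0.05 or less.

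Sertoli cell genes were lower at 8 M in 15 of 21 cases, beside 53.5% of all genes, with a median of -0.08. Of the 21, 3 reached an unadjusted p of 0.05 or less, beside 3.75% of all genes. Clu, which encodes the secreted chaperone clusterin and is among the most abundant Sertoli transcripts, had 15201 to 23558 normalized counts at 3 M (median 19436) and 4966 to 18161 at 8 M (median 15176). In all 8 libraries of 8 M it was below the median of 3 M, and in 4 below the lowest value. The difference was -0.51 (SE 0.19, adjusted p = 0.986), and -0.31 without replicate 4. Gdnf, the growth factor by which Sertoli cells maintain spermatogonial stem cells, had 15.4 to 25.5 (median 21.0) and 7.79 to 23.4 (median 15.1), a difference of -0.58 (SE 0.24, 95% interval -1.06 to -0.11) that was -0.61 without replicate 4; the gene is named because it was the third of the list at that threshold.

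Aard, a small protein made in Sertoli cells, was the other one, with 562 to 677 normalized counts at 3 M (median 652) and 399 to 617 at 8 M (median 556), a difference of -0.22 (SE 0.09). Sox9 and Wt1, transcription factors that define the cell type, differed by 0.17 (SE 0.19) and 0.09 (SE 0.15), and by 0.03 and -0.03 without replicate 4 of 8 M. Fshr, the receptor for follicle-stimulating hormone, differed by -0.01 (SE 0.20). The list took 0.173% to 0.248% of reads at 3 M and 0.105% to 0.199% at 8 M, so the ages overlapped. This share of reads follows Clu, whose counts are given above, far more than Aard or Gdnf. Without replicate 4 of 8 M the median stayed at -0.08, with 16 genes lower and 5 higher, beside 50.9% of all genes lower. In that setting 2 were at an unadjusted p of at most 0.05, beside 2.37% of all genes.

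Of 17 genes of the blood-testis barrier 11 were lower and 6 higher, beside 53.5% of all genes lower. Jam3, a junction adhesion molecule needed by Sertoli cells and spermatids, had 116 to 151 normalized counts at 3 M (median 138) and 130.1 to 206 at 8 M (median 173). In 5 of 8 libraries of 8 M it was above all of 3 M, with a difference of 0.32 (SE 0.11, adjusted p = 0.986). Tjp3, a scaffold of tight junctions, was far less abundant with medians of 8.71 and 3.65 (difference -0.68, SE 0.31). Tjp1, its abundant relative, differed by 0.03 (SE 0.14).

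Leydig cell markers other than steroid enzymes were lower in 7 of 9 cases, beside 53.5% of all genes, with a median of -0.07. Without replicate 4 of 8 M 6 were lower and 3 higher, beside 50.9% of all genes lower, with a median of -0.03. In either case 0 were at an unadjusted p of at most 0.05. Steroid genes had a median of -0.02 over 13 genes, 6 higher and 7 lower. Hsd3b1 was the 1 gene at that threshold, beside 3.75% of all genes. Along the pathway, Star, which brings cholesterol into the mitochondrion, had medians of 1241 and 1225 normalized counts (difference -0.15, SE 0.18). Cyp11a1, the enzyme of the first step, had 387 and 468 (0.09, SE 0.27). Hsd3b6, the relative of Hsd3b1 in Leydig cells, had 409 and 477 (0.10, SE 0.20), and its ranges of 337 to 536 and 239.7 to 589.6 overlapped widely.

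At the later steps 0 genes reached an unadjusted p of 0.05 or less. Cyp17a1 had 1265 to 1797 normalized counts at 3 M and 385 to 1727 at 8 M, and its difference of -0.27 (SE 0.26) was -0.03 without replicate 4. Hsd17b3, which makes testosterone from androstenedione, had medians of 305 and 309 (difference -0.16, SE 0.16). Cyp19a1, which turns androgens into oestrogens, had 2869 and 3047 (0.20, SE 0.12). Lhcgr, the receptor for luteinizing hormone, differed by -0.08 (SE 0.19).

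Peritubular myoid genes had a median of -0.02 over 10 genes and extracellular matrix genes -0.07 over 22. Sparc, a matrix glycoprotein, had 2354 to 3625 normalized counts at 3 M (median 2709) and 2021 to 3477 at 8 M (median 2490.3). Its difference was -0.17 (SE 0.09, 95% interval -0.37 to 0.02), and -0.24 without replicate 4, which held the highest value of 8 M. Genes of oxidative phosphorylation were lower in 30 of 40 cases (median -0.05) and ribosomal protein genes in 40 of 61 (median -0.04), beside 53.5% of all genes. Without replicate 4 these were 24 of 40 (-0.02) and 38 of 61 (-0.03), beside 50.9% of all genes. In either case 0 of these genes reached an unadjusted p of 0.05 or less.

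Cox8c, the subunit of cytochrome oxidase found in testis, came closest, with 7644 to 13698 normalized counts at 3 M (median 10530.3) and 5251 to 10092 at 8 M (median 8335). Its difference was -0.29 (SE 0.14, 95% interval -0.58 to 0.00). Cholesterol synthesis, heat shock, antioxidant, interferon and circadian genes had medians between -0.07 and 0.01, and 0 of their genes reached an unadjusted p of 0.05 or less. Without replicate 4 of 8 M the median of circadian genes was 0.08, with 14 of 17 higher in place of 11. That of antioxidant genes was 0.04, with 20 of 26 higher in place of 13. Of all genes, 49.1% were higher without that library and 46.5% with it. Without that library 1 antioxidant and 1 interferon gene were at that threshold, beside 2.37% of all genes. Among 15 genes of retinoic acid signalling, which starts meiosis, Crabp2 had medians of 7.07 and 9.95 (difference 0.58, SE 0.29, 95% interval 0.00 to 1.16). Immediate early genes had a median of 0.06 over 13 genes, and their share of reads was highest in replicate 4 of 8 M.

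**Figure D4:**
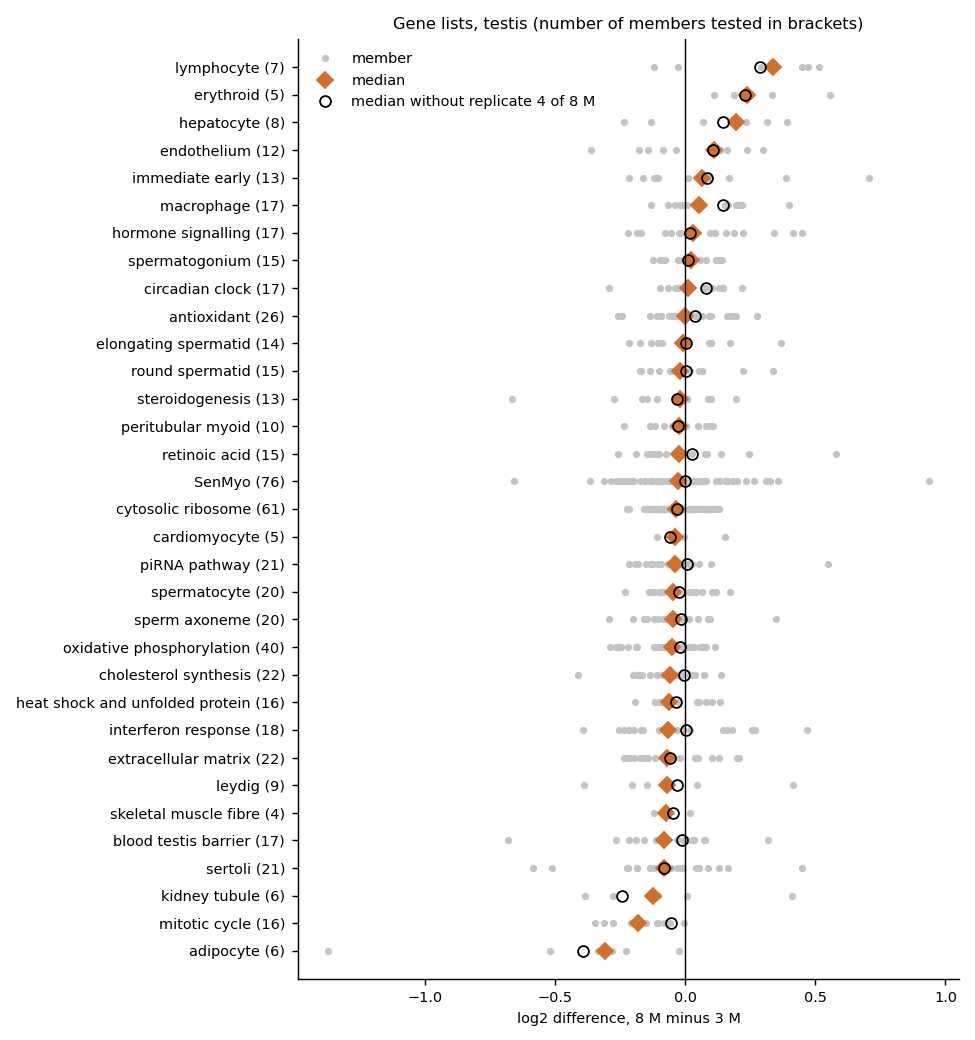
Log2 differences, 8 M minus 3 M, of gene lists with at least 4 members tested (number in brackets): grey points are members, orange diamonds the median, and open circles the median without replicate 4 of 8 M. The median of the mitotic cycle list was -0.18 with that library and -0.06 without it, and that of the Sertoli list -0.08 in both cases.

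Immune and blood cell lists are given beside the 46.5% of all genes that were higher at 8 M. Of all genes, 3.75% were at an unadjusted p of at most 0.05. Of 14 lymphocyte genes listed, only 7 passed the filter on level and were tested. Of these 7, 5 were higher and 1 reached an unadjusted p of 0.05 or less, with a median of 0.34 (0.29 without replicate 4). Lck, a kinase of the T cell receptor, had 15.4 to 28.2 normalized counts at 3 M (median 19.9) and 20.6 to 37.2 at 8 M (median 30.8). In 6 of 8 libraries of 8 M it was above all of 3 M, with a difference of 0.47 (SE 0.16, adjusted p = 0.986). Cd4 had medians of 12.9 and 20.0 (0.34, SE 0.20) and Cd3d differed by 0.29 (SE 0.24). The list took 0.000746% to 0.00124% of reads at 3 M and 0.000944% to 0.00154% at 8 M, and Ms4a1 and Igkc, which define B cells, were listed at 0.

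Macrophage genes were higher in 12 of 17 cases (median 0.05), and in 14 of 17 without replicate 4 (median 0.14), where 49.1% of all genes were higher. Cd163, a scavenger receptor of resident macrophages, had 13.9 to 39.2 normalized counts at 3 M (median 29.9) and 29.5 to 46.8 at 8 M (median 37.0), a difference of 0.40 (SE 0.18, 95% interval 0.04 to 0.76). The share of reads on the list was 0.0648% to 0.0974% at 3 M and began at 0.0528% at 8 M, where replicate 4 had the highest share. Aif1, the most abundant gene of the list, had medians of 6947 and 6994 normalized counts (difference -0.06, SE 0.14). Ctss, another member, ran from 68.0 to 124 at 3 M. The share of reads on the list therefore follows Aif1 far more than Ctss or Cd163. Which cells the Aif1 RNA came from was not tested. Endothelial genes had a median of 0.11 over 12 genes with 0 at an unadjusted p of at most 0.05. All 5 erythroid genes were higher (median 0.24), and Slc4a1, the anion exchanger of red cells, had medians of 10.1 and 17.5 (difference 0.56, SE 0.27).

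Adipocyte genes were lower in 6 of 6 cases tested, beside 53.5% of all genes, with a median of -0.31, and -0.39 without replicate 4. Of the 6, 0 reached an unadjusted p of 0.05 or less, beside 3.75% of all genes. Without replicate 4 all 6 were lower and 1 reached that threshold, beside 50.9% and 2.37% of all genes. Cfd, the adipokine adipsin, had 1.82 to 21.2 normalized counts at 3 M and 0 to 5.13 at 8 M. Its difference of -1.37 (SE 0.70) had a 95% interval of -2.78 to 0.04, and it was -1.57 without replicate 4. The list took 0.00324% to 0.00821% of reads at 3 M and 0.00315% to 0.00802% at 8 M. How much fat, blood or lymphoid tissue came with each testis was not tested.

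The study followed Cdkn1a and Cdkn2a in its organs other than testis, where it reported minimal expression of both. In the testis libraries Cdkn1a, which encodes the cell cycle inhibitor p21, had 109 to 144 normalized counts at 3 M (median 130.1) and 122 to 150.0 at 8 M (median 139.8), a difference of 0.14 (SE 0.09, interval -0.04 to 0.31). Cdkn2a, which encodes p16 and p19, had 55.6 to 66.9 (median 60.6) and 52.9 to 108 (median 58.5), a difference of 0.06 (SE 0.12, interval -0.18 to 0.31). A 1.5-fold difference lay outside both intervals. Of the 119 genes of SenMyo, a published list of senescence-associated genes, 76 were tested, and 33 were higher and 43 lower with a median of -0.03.

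Of these 76, 3 reached an unadjusted p of 0.05 or less, a share near the 3.75% of all genes, and without replicate 4 of 8 M 38 were higher and 38 lower. Rps6ka5, a stress-activated kinase, had medians of 332 and 352 normalized counts with a highest value of 797 in replicate 4 of 8 M (difference 0.33, SE 0.14, and 0.18 without it). Sema3f, a semaphorin, had medians of 36.9 and 30.0 (-0.31, SE 0.15). Ccl8, a chemokine that draws monocytes and T cells, had 0 to 7.46 normalized counts at 3 M (median 2.98) and 0.979 to 10.5 at 8 M (median 5.80), a difference of 0.94 (SE 0.42, 95% interval 0.09 to 1.78).

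Over all 6 ages 11 genes (0.0561%) passed an F-test in these testis libraries, Ccl8 among them, and their levels at 3 and 8 M are a description because the test chose them on the same libraries. Osbpl1a, which binds oxysterols at endosomes, had 1787 to 2378 normalized counts at 3 M (median 2214) and 1760.2 to 2124 at 8 M (median 1893). Its medians at 5, 14, 20 and 26 M were 2157, 1861, 1653 and 1357, so the level at 8 M lay close to that of 14 M. Fetub, a secreted protease inhibitor, had 16.2 to 84.8 at 3 M (median 21.2) and 21.8 to 78.4 at 8 M (median 50.5), and medians of 29.3, 63.4, 76.6 and 88.6 at the other ages. A single library of 3 M held the value of 84.8.

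Igf2, the fetal growth factor, had medians, from the youngest to the oldest age, of 83.8, 105, 149, 153, 216 and 252 normalized counts. Psg16 had 9.95, 13.2, 18.4, 16.8, 26.8 and 30.6 in the same order, and its reads may be shared with other genes of its family. By contrast, Mt3, Klk1b21 and Ctss had small differences between 3 and 8 M, of 0.07 (SE 0.25), 0.05 (SE 0.28) and 0.05 (SE 0.15). Klk1b21, one of a family of near-identical kallikreins, had medians of 28.5 at 3 M and 33.3 at 8 M beside 7.77 at 20 M. Ighm, the heavy chain of immunoglobulin M, had medians of 11.7 and 17.2 beside 35.2 at 20 M, and its highest library of 8 M had 46.3.

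**Figure D5:**
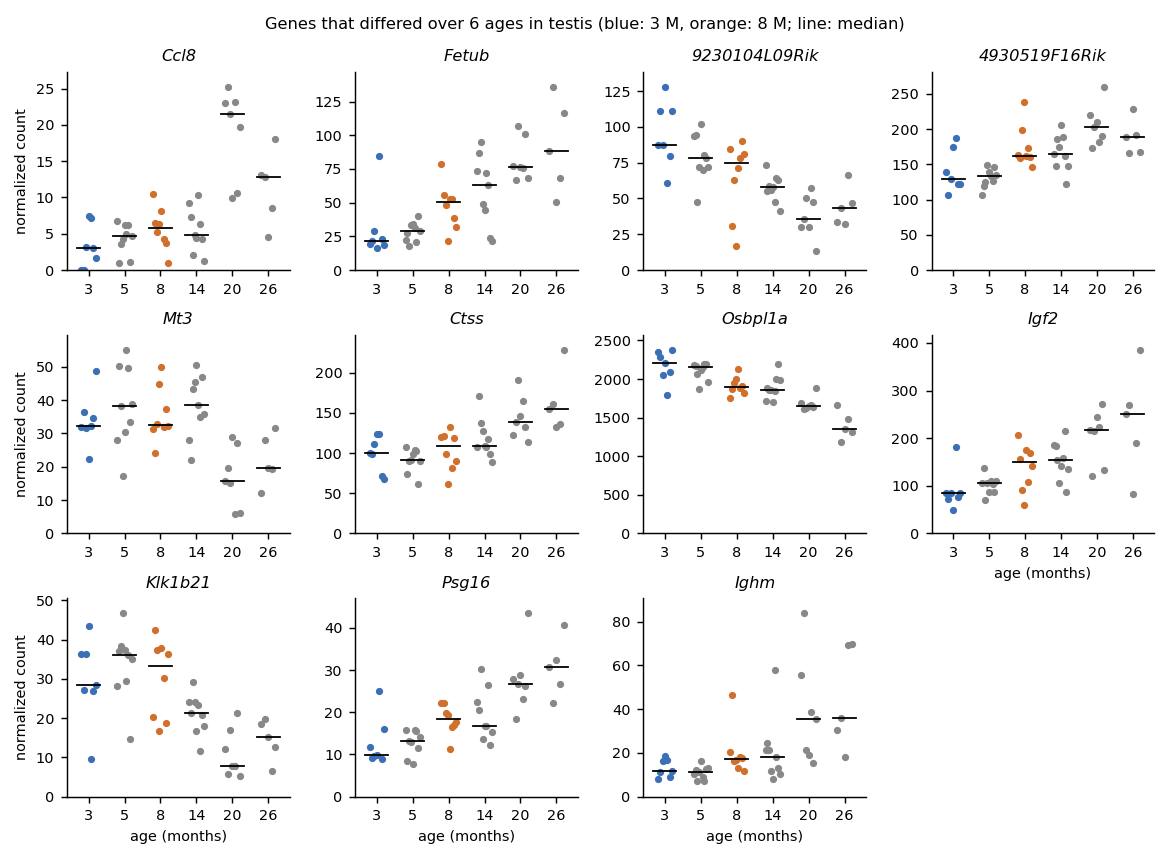
Normalized counts (vertical axes, each from 0) of the 11 genes that passed the F-test over 6 ages, by age in months; each point is 1 library, lines are medians, blue is 3 M, orange 8 M and grey the other ages. Osbpl1a had medians of 2214 at 3 M and 1893 at 8 M, and Mt3 of 32.3 and 32.6.

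The genes at an unadjusted p of at most 0.05 were spread over the genome. On autosomes they were 3.72% of 18683 genes tested, on chromosome X 4.63% of 777 and on chromosome Y 3.30% of 91. Genes of the X chromosome had a median difference of -0.03, against -0.01 on autosomes, and those of the Y chromosome 0.06, which was 0.00 without replicate 4 of 8 M. By biotype the share was 3.68% of 15510 protein-coding genes, 3.67% of 1771 lincRNAs and 4.02% of 622 processed pseudogenes. Across 19577 annotated genes the rank correlation of the difference with GC content was -0.0368 and with transcript length 0.0653, and without replicate 4 these were 0.0246 and 0.118. Genes are not independent replicates, so no p is given.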

How the data were processed

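Bulk RNA-seq of whole testis was analysed in 7 mice of 3 M and 8 of 8 M, 1 library each. Per the labels and the study's methods, the authors selected mRNA with oligo-dT, made cDNA from random hexamers, sequenced single reads without molecular identifiers, aligned them with HISAT2 2.1.0 to GRCm38 and counted reads on Ensembl genes; the strand setting of counting is not given in the sources used here. The deposited values are a signal unit: the authors scaled read counts by size factors from DESeq2, organ by organ. Whole reads were recovered from 100% of values (tolerance 1e-06), and 0 columns lacked a sample.

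Genes with at least 10 normalized counts in 5 or more testis libraries were kept. Log2(normalized count + 1) was fitted with limma over all 6 ages, with Benjamini-Hochberg adjustment, so a fold on this scale understates the change of low genes. Intervals are at 95%. edgeR and DESeq2 were run on recovered reads and each called 0 genes. Single library measures were compared by exact permutation tests. p-values rest on mice as replicates, and the collection day of each mouse is not in the labels.

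Genes named were the 12 of smallest p in each direction (no predicted models), list members at p of 0.05 or less or leading in p or level, pathway steps and defining markers, the F-test genes, and those said to be chosen after their values were seen. The comparison, members and lists were chosen with earlier results of these data known. Array weights and the GC and length correction were added after seeing the data. Scripts were tested on simulated data.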

Additional observations from a re-analysis of the deposited data

Results flagged for a closer look

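Of 148 groups of library values examined, 27 had an extreme library whose gap to the next exceeded Dixon's 95% limit. Chance gives about 1 in 20 for independent groups of normally distributed values. These groups came from the same 15 libraries, so their number cannot be judged against that rate. At 8 M replicate 4 accounted for several. It had a PC1 score of 100.4, the highest Nostrin (26.9 normalized counts) and Spata13 (173), and the highest shares of reads on immediate early genes (0.0809%) and on heat shock and unfolded protein genes (1.04%). It had the lowest shares for oxidative phosphorylation (0.242%), cholesterol synthesis (0.0793%) and antioxidant genes (0.266%). Its depth was the lowest of the 15 libraries, and the part of depth in these values was not tested.

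At 3 M replicate 4 stood out most often. It had the lowest Sppl3 (524.9 normalized counts), the highest shares for elongating spermatid (3.21%), peritubular (0.0339%), macrophage (0.0974%), oxidative phosphorylation (0.376%) and ribosomal protein genes (1.101%), and the lowest for retinoic acid (0.0659%) and mitotic cycle genes (0.113%).

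Liver and kidney markers were highest in replicate 3 at both ages, with hepatocyte genes at 0.00635% of reads at 3 M and 0.00707% at 8 M and kidney tubule genes at 0.00315% and 0.00348%. Replicate 3 of 8 M also had the highest adipocyte share, 0.00802%. Replicates 1 to 4 of both ages belong to the same set of mice by heart PC1, and whether a shared order of handling bears on these values was not tested.

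Single genes with 1 library apart were Trim68 (178.9 normalized counts in replicate 2), Calml3 (48.7 in replicate 6), Fetub (84.8 in replicate 5) and Igf2 (180.4 in replicate 5) at 3 M, and Capn13 (24.3 in replicate 6) and Ighm (46.3 in replicate 2) at 8 M.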

How the results depend on the processing

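The count of genes at an adjusted p of 0.05 or less was 0 under all alternatives run except array weights, which called 1 gene, Sox14; without any single library it ranged from 0 to 0. The 736 genes at an unadjusted p of 0.05 or less became 1291 of 32718 with no filter, 431 when 3 and 8 M were fitted alone and 1437 with log2 depth as a covariate; the cause was not tested, beyond more genes tested without a filter and fewer samples in the fit of both ages alone. Leaving out 1 library gave 465 to 1229 genes, the lowest without replicate 4 of 8 M and the highest without replicate 1 of 8 M. DESeq2 gave 874 genes, 571 higher and 303 lower, against 395 and 341. The 24 leading genes had the same sign under the alternatives run, which their choice by p from the same libraries largely fixes. Differences near 0, such as that of Wt1 (0.09, and -0.03 without replicate 4 of 8 M), could change sign. Intervals were widest for genes of low level, and the part of depth in this was not tested. No paired analysis was possible because the ages are different animals and the labels give no replicate numbers; those used here follow accession order.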
